A study of Danio rerio with 15 samples.

Results

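On the double diet, 61 muscle transcripts were off in every fish of one scaf1 genotype and on in every fish of the other. Members were selected on the estimated counts of the double diet fish. A transcript was taken where its rounded count was 0 in all 4 scaf1-/- (KO) fish and its level was at least 0.5 CPM (rounded counts per 1000000 counts of the library) in all 3 scaf1+/+ (WT) fish, or where the reverse held. The first kind, called KO-off here, had 45 members and the second, WT-off, had 16, of the 57775 transcripts in the files and the 49131 with a count in any fish. These are 0.0916% and 0.0326% of the transcripts with a count. Because the members were chosen by the double diet fish, their values on that diet are a description without a test, and the state of each member in the standard diet fish is the only independent measurement.

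Scaf1 (also Cox7a2l) is a mitochondrial protein that joins complexes III and IV of the respiratory chain into a supercomplex, and skeletal muscle depends on that chain for sustained work. A gene can give several transcripts through alternative start sites, splicing and end sites, and a transcript estimate divides reads among isoforms and near-identical copies by the stretches in which they differ. A transcript at 0 therefore can mean that its gene is silent, that another isoform of it is made, or that its reads were given to a close relative, and these cannot be told apart in the files. In whole muscle, fewer cells of a type and less RNA per cell also cannot be told apart.

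The study asked how the loss of scaf1 and the amount of food act on adult zebrafish, and sequenced RNA of dissected skeletal muscle from single females, 15 libraries in all. The double diet groups held 4 mutant (scaf1-/-) and 3 wild-type (scaf1+/+) females, and each standard diet group held 4. The double diet was 5 and the standard diet 3 daily feeds of Gemma-300 for 6 weeks in the labels, with 13 fish per 2 l tank, and the diet experiment with this allele began at an age of 7 months (the methods describe feeding and tank density differently). All mutants carried the Δ1 null allele from CRISPR/Cas9 editing. The scaf1+/+ fish were a sibling line from the same founder crossed to AB, with at most 4 in-cross generations, so genotype and line background cannot be told apart. No gene is paired with a transcript in the files, and the reference tables hold 0 of the transcript identifiers, so members are given by Ensembl identifier alone, no role or sequence is given for them, and neither scaf1 itself nor markers of muscle or of other cells were checked.

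Total counts ran between 13359354 and 15453518 in scaf1-/- and between 13000400 and 14226843 in scaf1+/+ double diet fish, and between 12037102 and 15844496 in scaf1-/- and between 4045333 and 13490269 in scaf1+/+ standard diet fish. Counting error alone allows a true value of up to 3 counts where a library shows 0, which is 0.194 to 0.225 CPM in the scaf1-/- and 0.211 to 0.231 CPM in the scaf1+/+ double diet fish. Between 29270 and 30839 transcripts had a count in each scaf1-/- double diet fish, and between 32212 and 33902 in each scaf1+/+ one. In standard diet they numbered 35800, 34455, 27848 and 27748 in scaf1-/- replicates 6, A, B and C, and 35766, 35460, 33493 and 15655 in scaf1+/+ replicates 6, 7, B and C. The scaf1+/+ standard diet replicate C stood apart as the shallowest library, and its limit of 0.742 CPM lies above the mean double diet level of 4 KO-off and 2 WT-off members. The 100 most abundant transcripts took 41.8%, 47.3%, 64.7% and 66.7% of the counts in those scaf1-/- standard diet fish and 39.4%, 35.3%, 54.3% and 65.7% in those scaf1+/+ fish.

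Most members were transcripts of low abundance. Over the scaf1+/+ double diet fish the mean level of the 45 KO-off members ran between 0.583 and 41.9 CPM, with a median of 1.95 CPM, and 23 of them lay under 2 CPM, 18 between 2 and 10 CPM and 4 at 10 CPM or more. Over the scaf1-/- double diet fish the 16 WT-off members ran between 0.695 and 14.5 CPM, with a median of 2.98 CPM, of which 7 lay under 2 CPM, 8 between 2 and 10 CPM and 1 above. For comparison, all 19082 transcripts at 0.5 CPM or more in the 3 scaf1+/+ double diet fish had a median level of 7.15 CPM, and the 15729 at that level in the 4 scaf1-/- fish had one of 6.81 CPM. The members are 0.236% and 0.102% of those transcripts. Rounded counts of 0 in every fish stood at the end of a series of partial ones, since 1135, 415 and 157 of the 19082 transcripts were at 0 in 1, 2 and 3 of the scaf1-/- fish beside the 45 at 0 in all 4. In the other direction, 278 and 64 of the 15729 were at 0 in 1 and 2 of the scaf1+/+ fish beside the 16 at 0 in all 3. Where the unrounded estimate had to be exactly 0, the lists held 30 and 8, so absence here means a rounded count. The 2 lists also face unequal hurdles, 4 fish at 0 against 3, so their sizes are not comparable.

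**Figure D1:**
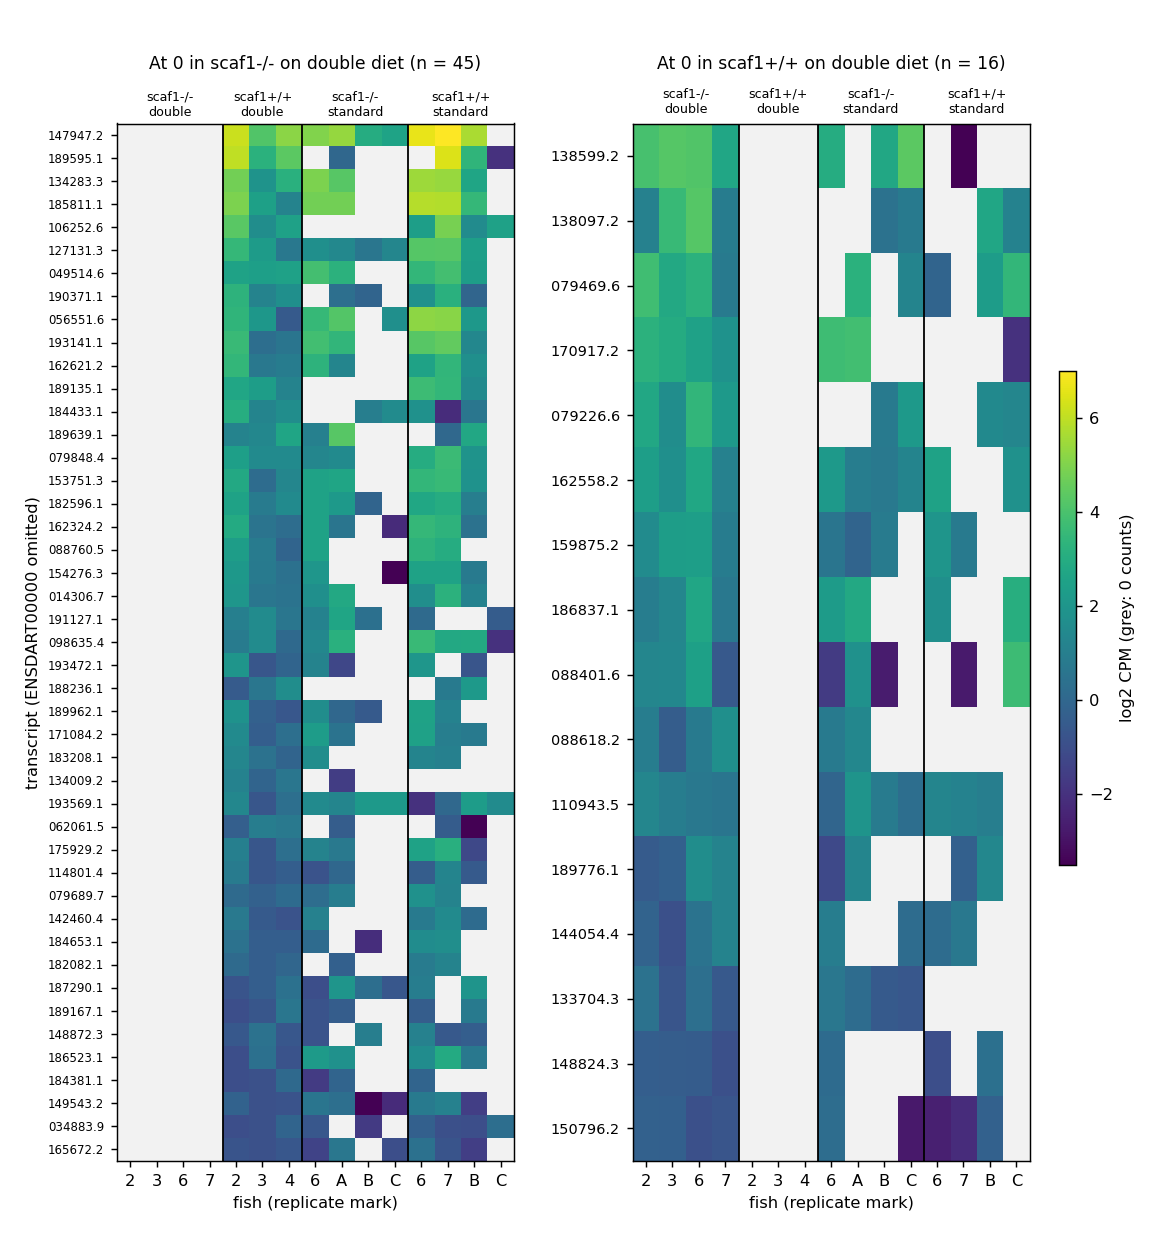
Levels of the 45 KO-off (left) and 16 WT-off (right) members, as log2 CPM by colour with 0 counts in grey, in each of the 15 fish, with members ordered by their mean level in the expressing double diet group. The double diet blocks are grey in one genotype because the members were chosen so, while the standard diet blocks are mixed, and the KO-off members are mostly grey in scaf1-/- replicates B and C and in scaf1+/+ replicate C.

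The rule's minimum of 0.5 CPM cut through a continuum. Just inside it stood the KO-off members ENSDART00000034883.9 and ENSDART00000189167.1, each with 0.506 CPM in its lowest scaf1+/+ fish, and just outside it ENSDART00000100961.6 and ENSDART00000184404.1, each with 0.492 CPM. For WT-off, ENSDART00000150796.2 and ENSDART00000148824.3 stood inside at 0.517 and 0.523 CPM in the lowest scaf1-/- fish, and ENSDART00000187497.1 and ENSDART00000151293.3 outside at 0.449 and 0.448 CPM. With no minimum other than a count in every expressing fish, 313 transcripts were at 0 in all scaf1-/- fish and 80 in all scaf1+/+ fish.

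Members differed widely among fish that expressed them. The highest scaf1+/+ double diet fish exceeded the lowest by a median of 3.06-fold over the KO-off members (range 1.1 to 14.7), and the highest scaf1-/- fish exceeded the lowest by a median of 3.27-fold over the WT-off members (range 1.49 to 10.1). For KO-off, replicate 2 was the highest scaf1+/+ fish for 32 of the 45, replicate 3 for 5 and replicate 4 for 8. These counts, and the like ones for WT-off below, come from the fish that chose the members. They have no share of all transcripts beside them, so they are not read as particular to the members. The summed level of the 45 was 367 CPM in replicate 2, 106 CPM in replicate 3 and 140 CPM in replicate 4. Replicate 2 was also the double diet fish with the most transcripts detected (33902) and the lowest share of counts in the 100 most abundant (44.0%, against 54.5% and 59.1% in the other scaf1+/+ fish and 52.6% to 64.1% in scaf1-/- fish), and the part of this in the result was not tested. For WT-off, the 16 members summed to 69.0, 68.4, 96.6 and 35.9 CPM in scaf1-/- replicates 2, 3, 6 and 7. Replicate 6 was the highest for 7 of them and replicate 2 for 6, and replicate 7 was the lowest for 10. Annotated transcript lengths were ordinary in both lists, with medians of 2534 bases for KO-off and 2095.5 bases for WT-off, against 2211 and 2272 bases for all transcripts at 0.5 CPM in the same expressing fish.

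The most abundant KO-off member was ENSDART00000147947.2. It had no count in the 4 scaf1-/- double diet fish and 72.0, 17.8 and 36.1 CPM in scaf1+/+ replicates 2, 3 and 4, a mean of 41.9 ± 27.6 CPM (SD, n = 3), at least 194-fold lower in scaf1-/- fish with each of them set at 3 counts. On the standard diet it had 32.6, 40.2, 7.96 and 6.03 CPM in scaf1-/- replicates 6, A, B and C, and 102, 142, 51.3 and 0 CPM in scaf1+/+ replicates 6, 7, B and C. It was thus on in every scaf1-/- fish of the standard diet. The 2 genotypes overlapped there because scaf1+/+ replicate C had no count. The limit of that shallow library, 0.742 CPM, lay far under the 51.3 to 142 CPM of the other scaf1+/+ fish, and what set its 0 was not tested. ENSDART00000127131.3 behaved in the same way, with no count in scaf1-/- and 11.3, 4.85 and 1.62 CPM in scaf1+/+ double diet fish. Its standard diet levels were 3.35, 2.66, 1.53 and 2.51 CPM in scaf1-/- fish and 18.7, 19.5, 5.31 and 0 CPM in scaf1+/+ fish.

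A second group of abundant KO-off members was on in some scaf1-/- standard diet fish and off in others. ENSDART00000134283.3 had 27.0, 3.69 and 8.93 CPM in the scaf1+/+ double diet fish. With standard feeding it had 30.7, 19.5, 0 and 0 CPM in scaf1-/- replicates 6, A, B and C and 43.6, 41.7, 6.34 and 0 CPM in scaf1+/+ replicates 6, 7, B and C, so replicates 6 and A of the mutant lay within the range of the scaf1+/+ fish. ENSDART00000185811.1 had 30.2, 5.46 and 2.32 CPM in the scaf1+/+ double diet fish. It had 27.0, 27.2, 0 and 0 CPM in the scaf1-/- and 57.3, 55.4, 11.2 and 0 CPM in the scaf1+/+ standard diet fish, with the same fish at 0. ENSDART00000049514.6 was the most even of the leading members on the double diet, with 5.93, 5.38 and 5.69 CPM in scaf1+/+ fish (5.67 ± 0.27, SD, n = 3). Its standard diet levels were 14.5, 9.47, 0 and 0 CPM in scaf1-/- fish and 10.9, 14.4, 5.06 and 0 CPM in scaf1+/+ fish, again with the same fish at 0 and the remaining ones mixed. ENSDART00000193141.1 (12.3, 1.23 and 1.48 CPM in scaf1+/+ double diet fish) had the same standard diet fish at 0. ENSDART00000056551.6 (10.3, 4.15 and 0.703 CPM) differed from it by a level of 3.30 CPM in scaf1-/- replicate C.

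Few leading members kept low values across the mutants of both diets. ENSDART00000189595.1 had 64.2, 9.15 and 20.7 CPM in scaf1+/+ double diet fish. On the standard diet its only count among scaf1-/- fish was in replicate A (0.997 CPM), but among scaf1+/+ fish too only replicate 7 (88.2 CPM) and replicate B (10.4 CPM) were clearly on, with 0 CPM in replicate 6 and 0.247 CPM in C. ENSDART00000190371.1 had 9.90, 2.31 and 3.30 CPM in scaf1+/+ double diet fish. In the standard diet fish it had 0, 1.25, 0.918 and 0 CPM in scaf1-/- fish and 3.51, 8.97, 0.942 and 0 CPM in scaf1+/+ fish, so that the genotypes overlapped.

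ENSDART00000106252.6 was the only KO-off member whose state was the same in all 8 standard diet fish. It had 0 counts in the 4 scaf1-/- double diet fish and 19.9, 3.15 and 5.76 CPM in the scaf1+/+ ones (9.62 ± 9.04, SD, n = 3). On the standard diet it again had 0 counts in the 4 scaf1-/- fish, and 5.26, 28.5, 3.00 and 5.69 CPM in scaf1+/+ replicates 6, 7, B and C (10.6 ± 12.0, SD, n = 4), at least 48.1-fold lower in scaf1-/- fish by the same reckoning. On the standard diet no value of the 4 mutants reached any of the 4 scaf1+/+ fish, the shallow replicate C included. The gap on the double diet was set by the choice of members. In the genotype comparison within the standard diet, edgeR's quasi-likelihood test gave it an unadjusted p of 0.00043 and a Benjamini-Hochberg adjusted p of 0.988, and DESeq2 gave an adjusted p of 1.57e-06. Over the 11 DESeq2 settings the adjusted p ran between 1.57e-06 and 0.00214, and the lowest over the 13 edgeR settings was 0.709. Its standard diet values were known before this test was run.

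ENSDART00000189135.1, named after its values were seen, came closest to that pattern. It had 6.5, 5.08 and 2.32 CPM in scaf1+/+ double diet fish, 0 counts in the 8 mutants of both diets, and 13.0, 10.9, 2.91 and 0 CPM in scaf1+/+ standard diet replicates 6, 7, B and C. Without replicate C it too met the rule in the standard diet fish. DESeq2 called it with an adjusted p of 0.0121, and in 7 of the 11 DESeq2 settings in all (adjusted p between 5.57e-07 and 0.739), while edgeR called it in none of the 7 settings that tested it. ENSDART00000188236.1, likewise named after its values were seen, also was at 0 in every mutant, but on the standard diet only scaf1+/+ replicates 7 and B had it, at 1.78 and 4.54 CPM.

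**Figure D2:**
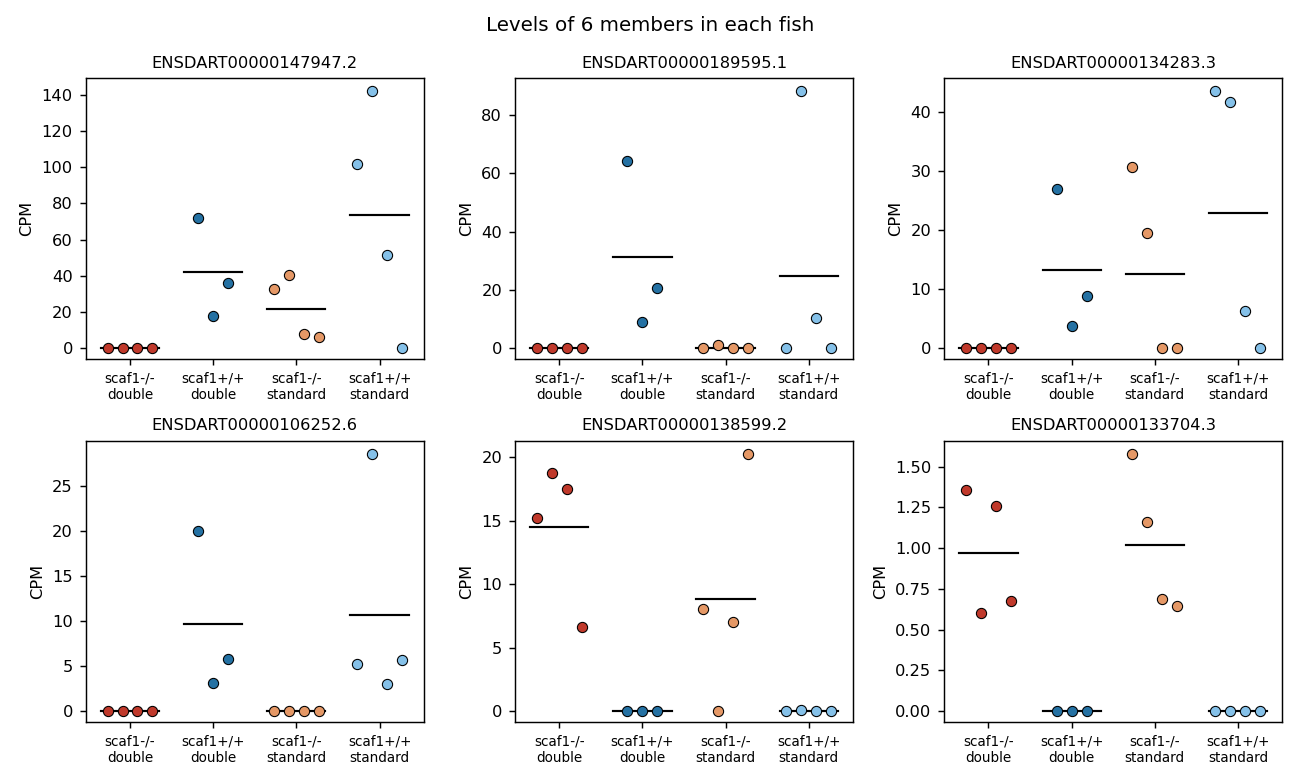
CPM of 6 members in each fish (points) with the group mean (horizontal line), by genotype and diet. ENSDART00000106252.6 and ENSDART00000133704.3 separate the genotypes on the standard diet as well as on the double diet, where the choice of members set this. ENSDART00000147947.2 and ENSDART00000134283.3 are off in the 4 scaf1-/- double diet fish and on in 4 and 2 of the scaf1-/- standard diet fish.

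Of the 45 KO-off members, 42 had a count in at least 1 scaf1-/- standard diet fish, and 5 had a count in all 4. A level of 0.5 CPM in 2 or more of them was reached by 30. The remaining 3 of the 45 were at 0 in all 4. So were 15 (0.0786%) of the 19082 transcripts at 0.5 CPM in the scaf1+/+ double diet fish, which include the members and had a higher median level. In scaf1+/+ standard diet fish, 44 of the 45 members had a count in at least 1 fish and 4 in all 4. Thus 1 of 45 was in the same state on the standard diet, and none was in the opposite state. Over all transcripts with a count, 2 met the KO-off rule in the standard diet fish (0.00407%), and these included ENSDART00000106252.6. The standard diet genotypes did not overlap, with scaf1-/- the lower, for 1 of the 45, against 178 of all transcripts (0.362%). Leaving out scaf1+/+ replicate C, a choice made after seeing the data, the members that did not overlap became 5 and all such transcripts 1764 (3.59%). Without that fish the rule had 3 scaf1+/+ fish, as on the double diet. It then took 42 of the 49131 transcripts with a count on the standard diet, close in number to the 45 of the double diet. The lists shared 2 transcripts, 4.44% of the double diet list and 4.76% of the standard diet one.

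The standard diet fish that lacked the KO-off members were of both genotypes. Members with a count numbered 36, 34, 13 and 10 of 45 in scaf1-/- replicates 6, A, B and C, and 40, 39, 36 and 6 in scaf1+/+ replicates 6, 7, B and C. Their summed level was 217, 213, 23.6 and 21.0 CPM in those scaf1-/- fish, and 438, 595, 160 and 11.1 CPM in those scaf1+/+ fish. Mutant replicates 6 and A were thus near the scaf1+/+ fish, and mutant replicates B and C were with scaf1+/+ replicate C. At 0 in both mutants B and C were 28 members, 25 of which had a count in mutant 6 or A. The most common pattern, shared by 12 members, was a count in mutants 6 and A and in scaf1+/+ 6, 7 and B, and in no other standard diet fish. Mutants B and C were not shallow, with floors of 0.230 and 0.215 CPM, but had fewer transcripts detected (27848 and 27748) and more of their counts in the 100 most abundant (64.7% and 66.7%) than mutants 6 and A. These values moved with the result, and their part in it was not tested. Of all 19082 transcripts at 0.5 CPM in the scaf1+/+ double diet fish, which were more abundant than the members, 98.9%, 98.0%, 94.3% and 94.1% had a count in those mutants and 98.5%, 98.9%, 98.7% and 65.7% in those scaf1+/+ fish.

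**Figure D3:**
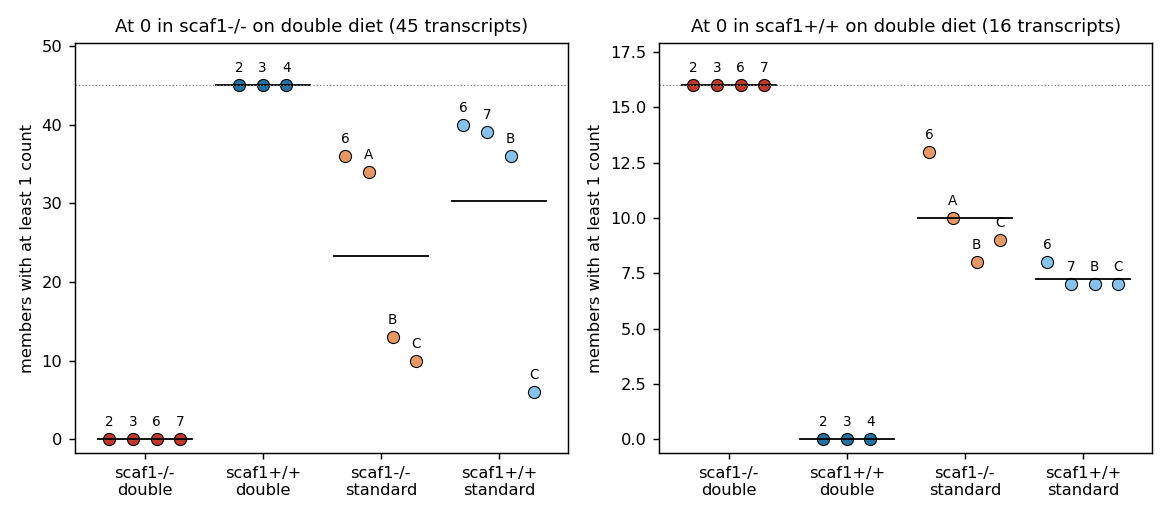
Members with at least 1 count in each fish (points, with the replicate mark) for the 45 KO-off (left) and 16 WT-off (right) members, with the group mean as a line and the list size dotted. The double diet values of 0 and of all members were set by the choice of members. On the standard diet the KO-off counts part mutants 6 and A (36 and 34) from mutants B and C (13 and 10).

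The mean standard diet level was higher in scaf1+/+ than in scaf1-/- fish for 38 of the 45 KO-off members and lower for 7. The highest of the 8 standard diet fish was scaf1+/+ for 37, namely replicate 7 for 19, replicate 6 for 14, B for 3 and C for 1. These counts have no share of all transcripts beside them, so they are not read as particular to the members. Replicates 7 and 6 also had the lowest shares of counts in the 100 most abundant transcripts among these fish (35.3% and 39.4%). The part of this in the result was not tested. An edgeR fit of the 8 fish without a filter on low counts tested every member. In it the log2 fold change of scaf1-/- over scaf1+/+ was below 0 for 36 of 45 (80.0%), with a median of -0.70. Over all 46875 transcripts 53.5% were below 0, with a median of -0.10. With the filter, 29 of the 45 members were tested. No member was called at an adjusted p under 0.05 with a log2 fold change beyond 1. Over all 22149 transcripts tested the edgeR calls numbered 0 (0.0%), and the unadjusted p was under 0.05 for 331 (1.49%). That share is below the 0.05 expected where no transcript differs, so these p-values ran high. The lack of edgeR calls therefore does not decide against a call by DESeq2. DESeq2 called 29 of 27753 (0.104%), 7 higher and 22 lower in scaf1-/- fish, and among them 2 KO-off and 2 WT-off members. Median-ratio scaling in place of TMM shifted the median log2 fold change of all transcripts in the edgeR fit to -0.24, against -0.08, and left edgeR at 0 calls. With it 61.9% of all transcripts were below 0, against 82.8% of the 29 KO-off members tested. By DESeq2 60.0% of all 45820 transcripts were below 0, against 81.8% of the 44 KO-off members tested. The transcripts behind these shares were not matched to the members in level.

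The most abundant WT-off member was ENSDART00000138599.2. It had 15.2, 18.8, 17.5 and 6.65 CPM in scaf1-/- double diet replicates 2, 3, 6 and 7 (14.5 ± 5.46, SD, n = 4) and no count in the 3 scaf1+/+ fish, which is at least 66.2-fold higher in the mutants with each scaf1+/+ fish set at 3 counts. In standard diet fish it had 8.02, 0, 7.04 and 20.3 CPM in scaf1-/- replicates 6, A, B and C, and 0, 0.0741, 0 and 0 CPM in scaf1+/+ replicates 6, 7, B and C. On the standard diet, which the rule did not use, it was therefore on in 3 of 4 mutants and near 0 in all scaf1+/+ fish, and mutant A broke the pattern. DESeq2 called it on the standard diet with an adjusted p of 0.0275, and it was called in 5 of 11 DESeq2 settings (adjusted p between 1.68e-05 and 0.378) and in none of the 7 edgeR settings that tested it. ENSDART00000170917.2 had 9.45, 7.86, 5.61 and 3.66 CPM in the scaf1-/- double diet fish. With the standard diet it had 13.3, 14.0, 0 and 0 CPM in scaf1-/- fish and 0, 0, 0 and 0.247 CPM in scaf1+/+ fish, so it was on in mutants 6 and A and off in B and C. Its shape in the mutants was that of many KO-off members.

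ENSDART00000133704.3 was the only WT-off member in the same state in all 8 standard diet fish. It had 1.36, 0.599, 1.26 and 0.672 CPM in the scaf1-/- double diet fish (0.971 ± 0.391, SD, n = 4), and 1.58, 1.16, 0.689 and 0.646 CPM in scaf1-/- standard diet replicates 6, A, B and C (1.02 ± 0.44, SD, n = 4). No scaf1+/+ fish of either diet had a count. Its level was low, and against the mean floor of 0.368 CPM of the scaf1+/+ standard diet libraries it was at least 2.77-fold higher in scaf1-/- fish. In scaf1+/+ replicate C alone the limit was 0.742 CPM, above the levels of mutants B and C. DESeq2 called it with an adjusted p of 0.0125, but in only 3 of the 9 DESeq2 settings that tested it (adjusted p between 0.00184 and 0.443), and its counts were under edgeR's filter. Neither of the 2 edgeR settings that tested it called it (adjusted p between 0.727 and 0.846). These include the fit of all 15 libraries, which takes in the double diet fish that chose the member, so that fit is not independent.

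Several other leading WT-off members had counts in scaf1+/+ fish of the standard diet. ENSDART00000138097.2 had 2.14, 12.0, 18.9 and 1.87 CPM in scaf1-/- double diet fish, 0, 0, 1.38 and 1.80 CPM in scaf1-/- standard diet fish, and 0, 0, 6.51 and 2.22 CPM in scaf1+/+ standard diet fish. Here replicates B and C of both genotypes were the fish with counts. ENSDART00000079226.6 had 6.86, 3.14, 10.7 and 4.41 CPM in scaf1-/- double diet fish, and on the standard diet 0, 0, 1.76 and 4.38 CPM in scaf1-/- and 0, 0, 2.83 and 2.47 CPM in scaf1+/+ fish, with the same fish on. ENSDART00000079469.6 had 13.7, 7.11, 9.45 and 1.79 CPM in scaf1-/- double diet fish, and on the standard diet 0, 9.22, 0 and 2.37 CPM in scaf1-/- and 0.918, 0, 4.97 and 10.9 CPM in scaf1+/+ fish, with the highest value in scaf1+/+ replicate C. For all 3 the standard diet genotypes overlapped.

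ENSDART00000162558.2 and ENSDART00000159875.2 were moderate on the double diet, with means of 4.36 ± 2.04 and 3.76 ± 1.61 CPM in scaf1-/- fish (SD, n = 4). The first had 4.35, 1.91, 1.68 and 2.37 CPM in the scaf1-/- and 5.93, 0, 0 and 3.46 CPM in the scaf1+/+ standard diet fish. The second had 1.51, 0.914, 1.84 and 0 CPM in the scaf1-/- and 3.92, 1.78, 0 and 0 CPM in the scaf1+/+ standard diet fish. For both the genotypes overlapped, and the highest value was that of scaf1+/+ replicate 6. Among the scaf1-/- double diet fish, ENSDART00000186837.1 and ENSDART00000088401.6 were lowest in replicate 7, at 1.64 and 0.672 CPM. Both were highest on the standard diet in scaf1+/+ replicate C, at 8.40 and 13.1 CPM, so the shallow library that lacked most KO-off members held the top value of these WT-off ones. ENSDART00000088618.2 had no count in any scaf1+/+ fish of either diet, but only mutants 6 and A had it on the standard diet (1.77 and 2.58 CPM). ENSDART00000110943.5, of rank 11 and named after its values were seen, had 1.49 to 2.52 CPM in scaf1-/- double diet fish and 0.947 to 3.82 CPM in scaf1-/- standard diet fish. It was on in 3 scaf1+/+ standard diet fish too, at 2.42, 2.22 and 1.97 CPM in replicates 6, 7 and B.

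Of the 16 WT-off members, 14 had a count in at least 1 scaf1+/+ standard diet fish, and none had a count in all 4. A level of 0.5 CPM in 2 or more of them was reached by 10. The remaining 2 of the 16 were at 0 in all 4. So were 10 (0.0636%) of the 15729 transcripts at 0.5 CPM in the scaf1-/- double diet fish, which include the members and had a higher median level. Among the members, 1 (ENSDART00000133704.3) was in the same state on the standard diet and none in the opposite state. Of all transcripts, 5 met the WT-off rule there (0.0102%). The standard diet genotypes did not overlap, with scaf1-/- the higher, for 1 of the 16, against 249 of all transcripts (0.507%). Without scaf1+/+ replicate C these were 1 and 405 (0.824%). The rule then took 7 of the 49131 transcripts with a count on the standard diet, of which 1 was shared. That is 6.25% of the double diet list and 14.3% of the standard diet one. Counts of WT-off members lay closer together over the standard diet fish than those of KO-off. Members with a count numbered 13, 10, 8 and 9 of 16 in scaf1-/- replicates 6, A, B and C, and 8, 7, 7 and 7 in scaf1+/+ replicates 6, 7, B and C, and their summed level was 41.3, 46.7, 16.4 and 34.3 CPM in those scaf1-/- fish and 18.4, 6.89, 21.0 and 40.8 CPM in those scaf1+/+ fish. The highest standard diet fish was scaf1-/- for 8 members and scaf1+/+ for 8, counts with no share of all transcripts beside them. In the edgeR fit without a filter the log2 fold change was below 0 for 6 of the 16 (37.5%), with a median of 0.31. Over all 46875 transcripts 53.5% were below 0, with a median of -0.10. That fit called 0 of all transcripts and so no member, while DESeq2 called 2 members and 29 of 27753 transcripts (0.104%).

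**Figure D4:**
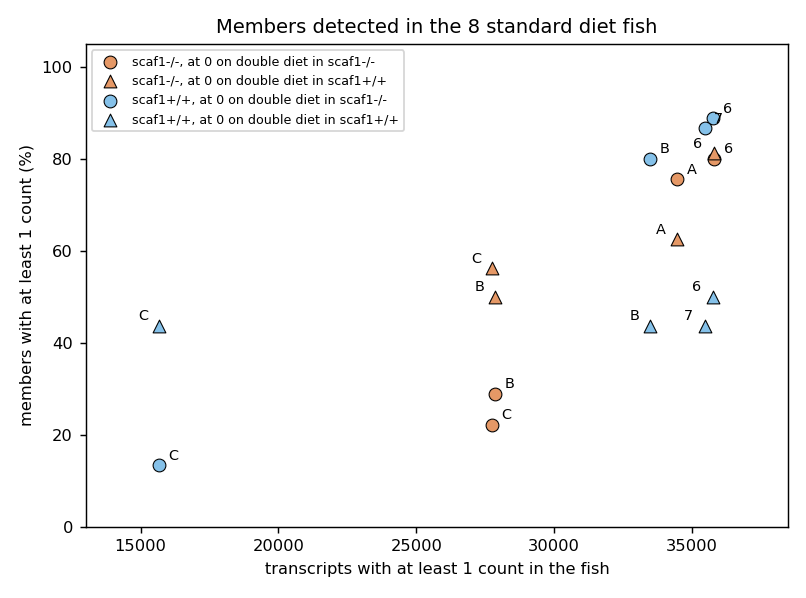
Share of the 45 KO-off (circles) and 16 WT-off (triangles) members with at least 1 count, in percent, against the number of transcripts with at least 1 count, in each standard diet fish, with its replicate mark. The KO-off share runs between 13.3% in scaf1+/+ replicate C, at 15655 transcripts, and 88.9% in scaf1+/+ replicate 6, at 35766, while the WT-off share lies between 43.8% and 81.3%.

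With all fish, the same rule took fewer transcripts in every other comparison than the 45 and 16 of the double diet genotypes. It took 2 transcripts at 0 in scaf1-/- and 5 at 0 in scaf1+/+ fish on the standard diet. Between the diets it took 10 off on the double and 5 off on the standard diet in scaf1-/- fish, and 3 off on the double and 12 off on the standard diet in scaf1+/+ fish. These numbers lean on scaf1+/+ standard diet replicate C, without which 96 in place of 3 were off on the double diet in scaf1+/+ fish and 19 in place of 12 off on the standard diet. The comparisons also differ in the number of fish that must pass. For KO-off these were 4 off and 3 on for the double diet genotypes, and 4 and 4 for the standard diet ones. List sizes are therefore not comparable. The comparisons share fish, so a member can be in more than one list. Of the 45 KO-off members, 4 were at 0.5 CPM or more in all 4 scaf1-/- standard diet fish, and so off in scaf1-/- fish on the double diet only (ENSDART00000147947.2, ENSDART00000127131.3 and, named after their values were seen, ENSDART00000187290.1 and ENSDART00000193569.1). ENSDART00000193569.1 had 2.60, 0.615 and 1.27 CPM in scaf1+/+ double diet fish, and on the standard diet 2.90, 2.41, 4.44 and 4.52 CPM in scaf1-/- and 0.25, 1.04, 4.97 and 2.97 CPM in scaf1+/+ fish. Every mutant of the standard diet thus had it, at levels that overlapped those of the scaf1+/+ fish. A single KO-off member, ENSDART00000134009.2 (also named after its values were seen), was at 0 in all 4 scaf1+/+ standard diet fish, and there only mutant A had a count, at 0.332 CPM.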

How the data were processed

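RNA of dissected skeletal muscle was sequenced, 1 library per fish. The authors ran FastQC (0.11.8 in the submitters' notes) and then kallisto 0.45.0 with the cDNA set of Ensembl 94. Each deposited file lists estimated counts by transcript, beside lengths. The notes also name sleuth, and the methods DESeq2. Estimated counts were rounded here to whole numbers, and CPM were taken over each library's total without further scaling. Groups came from the sample labels. A floor of 3 counts per library was averaged in CPM over the fish at 0.

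Members and lists were chosen with earlier results of these data known. Transcripts were named by a fixed rule: the 10 highest members per direction, members in the same or opposite state on the standard diet, the 2 nearest on each side of the minimum, and members passing the test. Other names are marked as chosen after their values were seen. Gene lists and cell type markers set for this work were not used, since no identifier could be paired with a gene.

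Genotypes were compared in the 8 standard diet fish alone with edgeR 4.0.16 in R 4.3.3 (filterByExpr with a smallest count of 10, TMM, robust quasi-likelihood test, Benjamini-Hochberg adjustment, called at an adjusted p under 0.05 with a log2 fold change beyond 1). Alternatives were DESeq2 1.42.0, plain or shrunken, size factors by median ratio, no filter, all 15 libraries in 1 fit, the replicate mark as a block, and each fish left out. The fit of all 15 libraries counts among the edgeR settings given for single members. It takes in the double diet fish that chose the members, so it is not an independent test of them. The rule was tried with minima of 0.25 and 1 CPM, unrounded zeros, up to 3 counts, TMM-scaled CPM and TPM. Both tests were tried on simulated counts.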

Additional observations from a re-analysis of the deposited data

Results flagged for a closer look

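Over 12 sets of 4 values examined, a far value in a set is expected by chance in about 1 of 20, and 3 sets had one, all of them in the scaf1+/+ standard diet fish. These 3 sets cover the same fish and 1 of them holds tied counts, so that rate is only a rough guide. Replicate C had 15655 transcripts with a count, far below the 33493 to 35766 of the other 3 fish, and 6 of the 45 KO-off members with a count, against 36 to 40 in those fish. Replicate 6 had 8 of the 16 WT-off members with a count, where the other 3 fish each had 7, a difference of 1 transcript.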

How the results depend on the processing

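The number of KO-off members was 45 and became 74 at a minimum of 0.25 CPM, 21 at 1 CPM and 86 with up to 3 counts allowed in each scaf1-/- fish. Unrounded zeros gave 30, TMM-scaled CPM 39 and TPM 37. Leaving out 1 fish can only keep or raise such a number, since every fish must pass the rule. It gave between 70 and 172, the highest without scaf1+/+ replicate 4. The 16 WT-off members became 24 at 0.25 CPM, 9 at 1 CPM, 8 with unrounded zeros and 25 with up to 3 counts, 19 with TMM-scaled CPM and 12 with TPM, and between 19 and 46 with 1 fish left out. KO-off members in the same state on the standard diet were 1, and between 1 and 2 with a fish left out (2 without scaf1+/+ replicate C). The single WT-off one fell below a minimum of 1 CPM, which left 0. Standard diet genotype calls were 0 by edgeR under each of its settings, 29 by DESeq2 and 28 with shrinkage. With a fish left out edgeR called 0 each time. DESeq2 called between 7 and 117, the 7 without scaf1+/+ replicate 6 and the 117 without scaf1+/+ replicate C. With the replicate block edgeR called 0 and DESeq2 34 (by edgeR 237 had an unadjusted p under 0.05), and of these calls ENSDART00000106252.6 and ENSDART00000138599.2 were members. Same-marked standard diet fish of both genotypes correlated at r = 0.465, 0.0978 and 0.386 in their deviations, and mutant 6 at 0.554 with scaf1+/+ 7, so the marks were not read as pairs. The log2 fold change of ENSDART00000138097.2 on the standard diet ran between -1.93 and 0.27 with a fish left out. It changed sign by edgeR alone, without scaf1+/+ replicate B (0.27, against -0.23 by DESeq2). That of ENSDART00000079469.6 (between -2.42 and 0.76) changed sign without scaf1+/+ replicate C (0.74 by edgeR, 0.76 by DESeq2). That of ENSDART00000079226.6 (between -1.09 and 1.63) did so without scaf1-/- replicate C (-0.83 by edgeR, -1.09 by DESeq2). By DESeq2 it also did so without scaf1+/+ replicates 6 or 7 (-0.04 each). None of these was called, and the cause of the changes was not tested. The mean double diet level of 4 KO-off and 2 WT-off members lay under the limit of 0.742 CPM of scaf1+/+ standard diet replicate C. For the other members that level was not under the limit. Of all transcripts at 0.5 CPM in the expressing double diet fish, 65.7% (KO-off direction) and 75.4% (WT-off direction) had a count in this library. The part of depth in these absences was not tested.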
